A study of Mus musculus with 8 samples.

Results

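The SLAM family is a group of cell surface receptors of the immunoglobulin superfamily that are found on blood cells. The genes studied here are Slamf1, which encodes CD150, Cd48, Cd84, Ly9, which encodes CD229, and Slamf6, Slamf7, Slamf8 and Slamf9. They were taken by name from the deposited expression table, using probe sets annotated with exactly 1 gene symbol and, where a gene had several, its brightest by mean signal. All 8 were found among 22180 genes with such a probe set, and all 8 passed the filter on low values (the 25th percentile of probe set means, a log2 signal of 3.88) among 17576 genes tested.

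Most SLAM receptors bind a second copy of themselves on a neighbouring cell, whereas CD48, which is anchored in the membrane by a lipid and has no cytoplasmic tail, is the ligand of CD244. Tyrosine motifs in the tails of the signalling members recruit the small adaptors SAP and EAT-2 and, when these are absent, phosphatases. In mouse bone marrow CD150 and CD48 are standard sorting markers: stem cells carry CD150 and lack CD48, while many of their progeny do the reverse, and CD229 and CD244 antibodies are used to subdivide the same cells.

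RNA was measured on 8 single-colour microarrays of cells sorted from bone marrow of C57/Bl6 mice, with an age of 8 weeks. The 2 arrays called long-term stem cells, LT-HSC, carry replicate numbers 1 and 3 and were sorted as CD48-CD150+CD34-. The 3 arrays of short-term stem cells (ST-HSC) were CD48-CD150+CD34+, and the 3 of multipotent progenitors (MPP) CD48+CD150-CD34+. All 3 populations were Lin-Sca1+Kit+. The labels disagree on what the cells had been through: each description gives no treatment, but the protocol attached to all samples has DMSO for 2 hours, a first transplant read out after 1 year and a second after 3 months. The study asked how the chromatin remodeler Chd7 is expressed in these cells, so the SLAM genes bear on it through the gate. Values are log2 signals made by RMA, and no label says that arrays came from separate mice, so p-values here reflect array-to-array spread alone, part or all of which may be technical.

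Arrays were alike in median signal (4.95 to 5.22), but LT-HSC replicate 1 and ST-HSC replicate 1 had the narrowest interquartile ranges (2.49 and 2.73, against 2.82 to 3.06 elsewhere) and the lowest median correlations with the other arrays (0.956 and 0.968). The mean of 20 granulocyte and monocyte markers was raised in replicate 1 of every population. Its log2 deviation was 0.65 (LT-HSC), 0.99 (ST-HSC) and 0.62 (MPP), against -0.80 to -0.21 on the other 5 arrays. Not every gene of the list went this way, Csf3r being 6.81 in LT-HSC replicate 1 and 7.89 in LT-HSC replicate 3. Kit, a receptor used in every gate, was 9.84 to 10.45 throughout, but Cd34 RNA, absent by protein from the LT-HSC gate, was 8.50 and 10.20 in LT-HSC, 9.55, 10.15 and 10.07 in ST-HSC and 10.85 or more in MPP. For Cd48, Ly9, Slamf8, Slamf9 and Cd244a, values without 1 or both of these arrays stand beside some of the differences they moved.

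All of the family lies in one stretch of mouse chromosome 1, where RefSeq lists Cd244a, Ly9, Slamf7, Cd48, Slamf1, Cd84 and Slamf6 in that order, with Slamf9 and Slamf8 further along among unrelated genes. The sequences upstream of the annotated start are shown for the pair of gate markers and for Cd244a, because these near neighbours had different profiles across the populations. They come from RefSeq's GRCm38.p6 annotation, which had a promoter entry for 7 of the 8 genes (not Ly9). Each is the 250 bases before the start on the plus strand, 5′ to 3′, at chr1:171766882-171767131 for Slamf1, chr1:171681742-171681991 for Cd48 and chr1:171558943-171559192 for Cd244a. Capitals mark matches, on either strand, to GATAA (the core bound by GATA factors), TGTGGT (a core bound by RUNX factors) or CGGAAG (a form of the site bound by ETS factors). Other forms of these sites were not searched.
Slamf1: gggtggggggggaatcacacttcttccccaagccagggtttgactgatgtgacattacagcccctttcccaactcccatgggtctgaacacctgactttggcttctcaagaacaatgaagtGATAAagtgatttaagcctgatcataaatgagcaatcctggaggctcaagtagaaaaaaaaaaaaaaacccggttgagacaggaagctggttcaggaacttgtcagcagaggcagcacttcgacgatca
Cd48: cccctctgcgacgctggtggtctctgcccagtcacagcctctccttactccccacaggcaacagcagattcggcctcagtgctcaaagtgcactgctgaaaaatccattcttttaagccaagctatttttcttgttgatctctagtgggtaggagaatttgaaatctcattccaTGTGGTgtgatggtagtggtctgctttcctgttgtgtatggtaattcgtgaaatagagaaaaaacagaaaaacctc
Cd244a: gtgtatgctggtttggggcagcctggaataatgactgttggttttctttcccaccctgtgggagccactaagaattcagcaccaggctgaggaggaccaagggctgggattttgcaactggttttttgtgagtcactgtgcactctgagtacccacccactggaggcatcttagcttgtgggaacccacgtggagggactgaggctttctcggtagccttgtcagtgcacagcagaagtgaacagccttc
The Slamf1 window held 1 match to GATAA, 129 bases before the start, and the Cd48 window held 1 match to TGTGGT, 76 bases before it. The Cd244a window held 0 matches to any of them. Among all 32851 upstream windows of the same length, 22.6% held GATAA, 14.0% TGTGGT and 13.6% CGGAAG, so either match is a common one, and no binding was measured here.

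Slamf1 RNA followed the CD150 gate. It was 7.77 and 7.78 in the LT-HSC arrays and 7.32, 7.25 and 7.46 in the ST-HSC arrays (replicates 1, 2 and 3), but 4.93, 5.46 and 4.77 in MPP. Every array sorted as CD150+ lay above every array sorted as CD150-, with a gap far wider than the spread within a population. The signal was 6.58-fold lower in MPP than in LT-HSC (log2 difference -2.72, 95% interval -3.19 to -2.25, limma adjusted p = 0.00115) and 4.87-fold lower than in ST-HSC (-2.28, -2.70 to -1.86, limma adjusted p = 0.00218). Slamf1 ranked 1 of 17576 genes by p in both comparisons, and its gate makes this a check of the labels. In sorted bulk samples fewer cells carrying an RNA and less RNA per cell cannot be told apart.

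Within the CD150+ cells, Slamf1 was a little lower in ST-HSC than in LT-HSC. The arrays did not overlap and both shared replicate numbers gave a lower value in ST-HSC (by -0.45 and -0.32), but the difference of -0.43 did not pass (95% interval -0.90 to 0.03, limma adjusted p = 0.484). Groups without overlap were frequent in this comparison, at 23.3% of all genes tested.

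**Figure D1:**
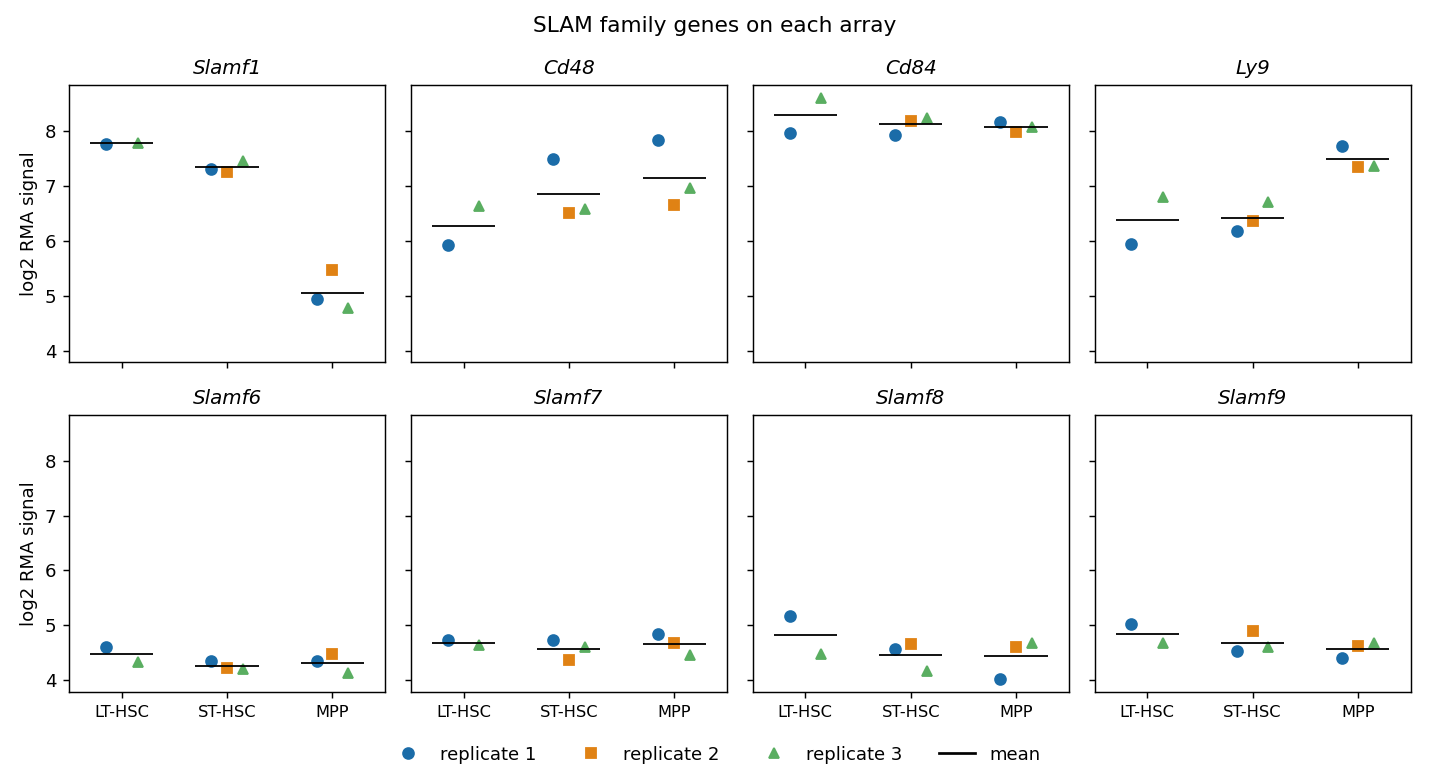
Log2 RMA signal (vertical axis) of the 8 SLAM family genes on each array, by population (horizontal axis), with colour and shape for the replicate number and a line at the mean of each population. Slamf1 drops from above 7.2 to below 5.5 in MPP, Ly9 is above 7.3 in MPP only, and the 4 genes of the lower row stay between 4.02 and 5.18.

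Cd48, the ligand of CD244 and the other SLAM gate marker, passed the test in no comparison by RNA, in cells that had been sorted by its protein. Its signal was 5.92 and 6.63 in LT-HSC, 7.49, 6.51 and 6.57 in ST-HSC and 7.84, 6.65 and 6.96 in MPP, in the same replicate order. MPP lay above LT-HSC on every array, the nearest pair being 6.65 against 6.63, whereas MPP and ST-HSC overlapped. MPP and LT-HSC did not overlap for 24.7% of all genes. The difference was 0.87 for MPP minus LT-HSC (95% interval 0.03 to 1.72, limma adjusted p = 0.461) and 0.29 for MPP minus ST-HSC (-0.46 to 1.05, limma adjusted p = 0.999). ST-HSC minus LT-HSC gave 0.58 (-0.26 to 1.42, limma adjusted p = 0.612), a contrast between populations that were both sorted as CD48-, and without the arrays of narrowest range, LT-HSC replicate 1 and ST-HSC replicate 1, it turned to -0.093. The MPP minus LT-HSC difference of Cd48 was 0.52 with LT-HSC replicate 1 left out and 1.23 with LT-HSC replicate 3 left out, neither of them passing. Fits of only the groups compared, blocked on the replicate number, were added after seeing the data and leave 1 residual degree of freedom against LT-HSC. There Cd48 exceeded LT-HSC by 1.12 for MPP and 0.76 for ST-HSC, and both passed (limma adjusted p = 0.0206 and 0.0362).

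Cd48 varied more between arrays of one population (SD 0.50, 0.55 and 0.62) than most of the family. Its highest values in ST-HSC and in MPP were those of replicate 1. There 18 of the 20 granulocyte and monocyte markers and all 8 tested erythroid markers also peaked in both populations. In LT-HSC the order was the other way, with Cd48 lower and the means of both lists higher in replicate 1. The erythroid list stood at 0.98 in ST-HSC replicate 1, 0.48 in MPP replicate 1 and 0.05 in LT-HSC replicate 1. Granulocyte and monocyte genes stood, over their list of 20, between -0.80 and 0.65 in LT-HSC, -0.60 and 0.99 in ST-HSC and -0.33 and 0.62 in MPP, with S100a8, a neutrophil protein, between 6.61 and 11.29 over all arrays. The part of either list in the Cd48 values was not tested. Between arrays with the same number, Cd48 was higher in MPP than in ST-HSC by 0.35, 0.14 and 0.39.

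**Figure D2:**
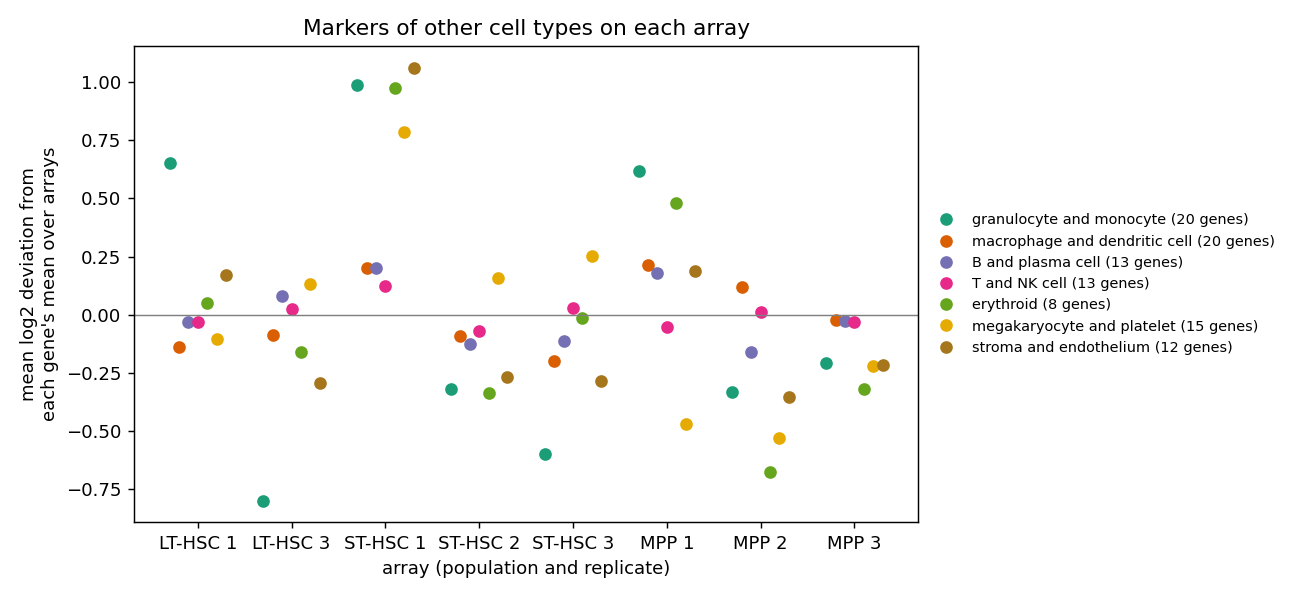
Mean log2 deviation of 7 marker lists for other cell types from each gene's mean over all arrays (vertical axis), for each array (horizontal axis), with 1 point per list. Granulocyte and monocyte genes lie above 0.6 in the 3 replicate 1 arrays and below -0.2 on the others, and ST-HSC replicate 1 is also highest for erythroid, megakaryocyte and stromal genes.

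Ly9, a receptor that binds itself and is best known from T and B cells, was the other family gene whose MPP arrays did not overlap the rest. It was 5.95 and 6.79 in LT-HSC, 6.19, 6.36 and 6.71 in ST-HSC and 7.73, 7.34 and 7.37 in MPP. All MPP arrays exceeded all stem cell arrays, as they did for 3.7% of all genes, while LT-HSC and ST-HSC overlapped fully. The signal was 2.16-fold higher in MPP than in LT-HSC (log2 difference 1.11, SE 0.26, limma adjusted p = 0.187) and 2.08-fold higher than in ST-HSC (1.06, SE 0.24, limma adjusted p = 0.124). Neither passed over all genes, nor did the F test over the populations (limma adjusted p = 0.0859), and exact permutation of the array labels for Ly9 alone gave p = 0.0429, where 0.00357 is the smallest this design allows. The same permutation was run for all 8 genes, without adjustment over them, and Ly9 was singled out with its values known. Exact permutation gave p = 0.00357 for Slamf1 and p from 0.35 to 0.78 for the other genes.

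The Ly9 difference between MPP and ST-HSC depended on how replicate numbers were treated. Arrays of these populations with the same number deviated together only weakly (r from 0.15 to 0.23), which does not establish a pairing. With that number as a block the difference of 1.06 passed (limma adjusted p = 0.0215), being positive in 3 of 3 pairs (1.55, 0.98 and 0.65). With the number as a random block, through an estimated correlation, it did not pass (limma adjusted p = 0.0714). The replicate block raised the number of genes called in this comparison from 34 to 267, and the random block raised it to 66. Between ST-HSC and LT-HSC Ly9 differed by 0.05 (95% interval -0.53 to 0.63, limma adjusted p = 0.965). That difference was -0.37 with LT-HSC replicate 1 left out and 0.47 with LT-HSC replicate 3 left out. Leaving out LT-HSC replicate 1 and ST-HSC replicate 1, the lowest Ly9 values of their populations, MPP exceeded LT-HSC by 0.69 and ST-HSC by 0.94 (limma adjusted p = 0.474 and 0.0943). The MPP minus LT-HSC difference was 1.53 and passed when LT-HSC replicate 3 was left out (limma adjusted p = 0.0257), the lone LT-HSC array being assumed to vary like the other groups.

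Cd244a, the receptor for CD48 and the neighbour of Ly9, is a SLAM gene outside the 8 and was likewise highest in MPP. It was 5.05 and 5.61 in LT-HSC, 5.14, 5.27 and 5.34 in ST-HSC and 6.78, 5.97 and 6.11 in MPP. All MPP arrays again lay above the rest, as for 3.7% of all genes. The differences were 0.95 against LT-HSC (SE 0.26, limma adjusted p = 0.234) and 1.04 against ST-HSC (SE 0.23, limma adjusted p = 0.124), and the latter passed with the replicate block (limma adjusted p = 0.0296) but not with the random replicate block (limma adjusted p = 0.0762). The former was 0.67 with LT-HSC replicate 1 left out. Cd2, a related receptor that binds CD48 in the mouse, fell under the filter on low values, at 3.40 to 4.35.

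**Figure D3:**
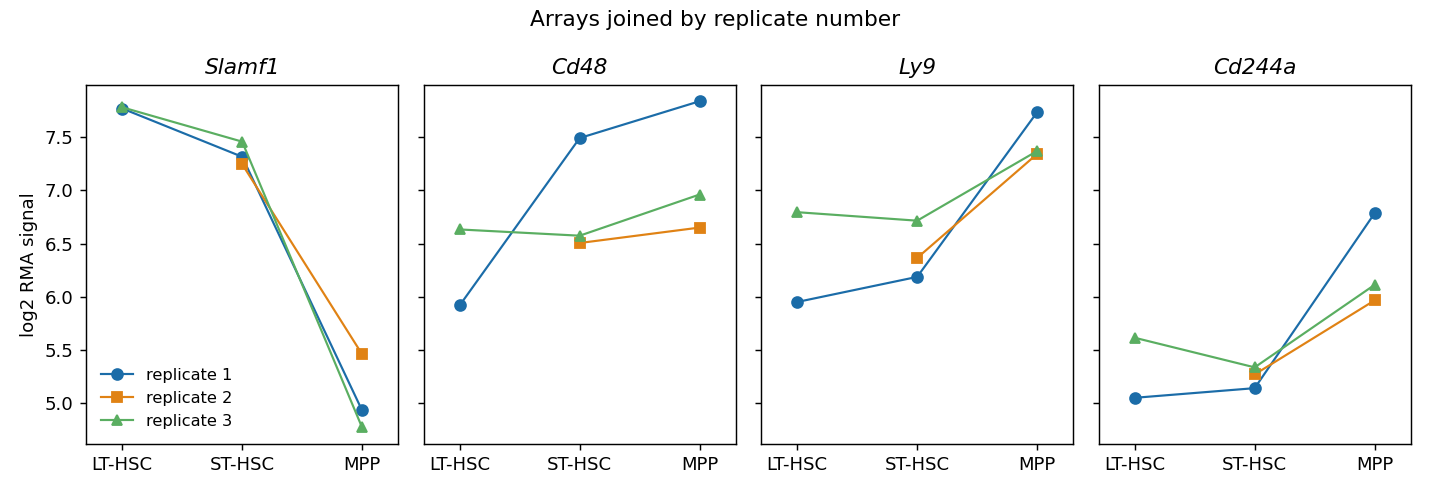
Log2 RMA signal (vertical axis) of Slamf1, Cd48, Ly9 and Cd244a by population (horizontal axis), with arrays of the same replicate number joined; replicate 2 has no LT-HSC array. Slamf1 falls and Ly9 and Cd244a go up from ST-HSC to MPP in all 3 replicate numbers, while Cd48 moves by 0.39 or less at that step.

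Cd84, a self-binding receptor of platelets, mast cells and lymphocytes, passed the test in no comparison. It read 7.95 and 8.61 in LT-HSC, 7.93, 8.18 and 8.24 in ST-HSC and 8.16, 7.98 and 8.08 in MPP, and every pair of populations overlapped. Its range over all arrays was 0.68, against 3.01 for Slamf1, 1.92 for Cd48 and 1.78 for Ly9. LT-HSC replicate 3 had the highest value of all arrays, so its differences from LT-HSC depended on the arrays used. MPP minus LT-HSC was -0.21, and -0.42 with quantile normalization. With arrays left out singly it ran from -0.53 to 0.12, and ST-HSC minus LT-HSC ran from -0.49 to 0.16. The differences had 95% intervals of -0.68 to 0.26 for MPP minus LT-HSC, -0.63 to 0.31 for ST-HSC minus LT-HSC and -0.47 to 0.38 for MPP minus ST-HSC, so a change as large as the drop of Slamf1 in MPP lies outside each of them. By mean signal Cd84 stood at the 91.0th percentile of all probe sets, the highest place in the family, although signals of different probe sets also depend on the probes.

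Slamf6, Slamf7, Slamf8 and Slamf9 were dim. Slamf6 and Slamf7 are receptors of T, B and natural killer cells, Slamf8 is found on macrophages and Slamf9 on dendritic cells. Their means over all arrays were 4.34, 4.63, 4.55 and 4.68, at percentiles 35.8 to 43.1 of all probe sets. Olfactory receptor genes, which blood cells are not known to use, had a median of 3.36 and a 95th percentile of 5.19 over 1105 genes, and each of the 4 means lay below that 95th percentile. RMA values carry no call of presence, so an RNA level this low is not told from background here.

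None of the 4 dim genes passed limma's test in any comparison, and 0 had an unadjusted p under 0.05. Slamf8 had the widest spread, with 5.18 and 4.48 in LT-HSC, 4.57, 4.66 and 4.18 in ST-HSC and 4.02, 4.61 and 4.67 in MPP. Its largest difference was -0.39 for MPP minus LT-HSC (95% interval -0.99 to 0.20, limma adjusted p = 0.588), and the highest value was that of LT-HSC replicate 1, without which the Slamf8 difference was -0.047. Slamf9 was 5.02 on that array and 4.40 to 4.89 on the others, with a difference of -0.28 in the same comparison (-0.70 to 0.15, limma adjusted p = 0.592) that came to -0.10 without that array. Slamf7 stayed between 4.37 and 4.84 and Slamf6 between 4.14 and 4.61. A second probe set for Slamf6 was dimmer still, with a mean of 4.43 in LT-HSC against 3.92 in ST-HSC and 3.96 in MPP. It followed the first with r = 0.88 over the 8 arrays.

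Marker lists of the cells in which these dim genes are best known held both bright and dim members. In the T and NK cell list, with 13 of 20 genes tested, Nkg7, a granule protein of cytotoxic cells, averaged 9.18 and the surface protein Thy1 6.19, whereas Cd3e and Cd3g, chains of the T cell receptor complex, fell under the filter on low values. In the B and plasma cell list, with 13 tested, Cd79b averaged 7.67, Xbp1 7.65 and Sdc1 6.64, whereas Ms4a1 (CD20) fell under the filter. Among macrophage and dendritic cell markers the brightest were Bst2 at 8.52, H2-Ab1 at 8.40 and Tcf4 at 8.18. The mean deviation of each list from its genes' own means, which says nothing of level, stayed between -0.20 and 0.21 on every array. None of the genes of these 3 lists was called by limma in any comparison, and at an unadjusted p under 0.05 the T and NK list had 4, 1 and 0, the B list 2, 0 and 1 and the macrophage and dendritic list 1, 0 and 1 (MPP minus LT-HSC, ST-HSC minus LT-HSC, MPP minus ST-HSC).

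**Figure D4:**
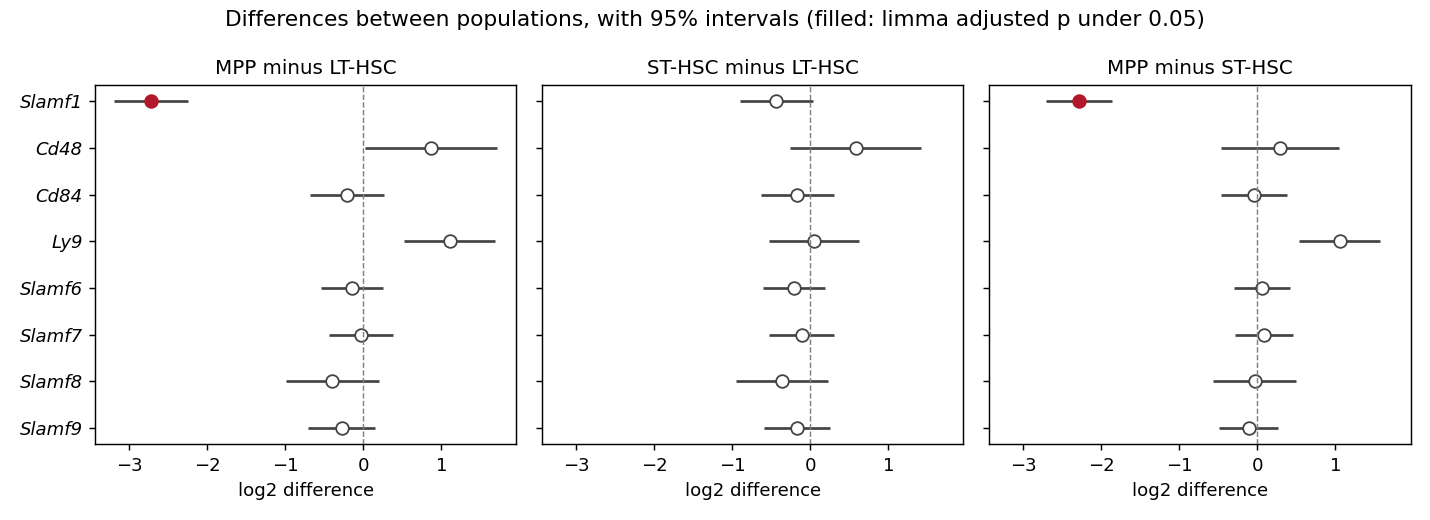
Log2 difference (horizontal axis) of each SLAM family gene in the 3 comparisons, with limma's 95% interval as a bar and filled points where the limma adjusted p was under 0.05. Only the Slamf1 points in the comparisons with MPP are filled; Ly9 lies near 1.1 in both of these with intervals above 0, and the other intervals reach or come close to 0.

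Counted over the family, 1 of 8 genes was called in MPP minus LT-HSC, where 0.125% of all genes were, and 1 of 8 in MPP minus ST-HSC, where 0.193% were. In ST-HSC minus LT-HSC 0 of 8 were called by limma, against 0.933% of all genes, and 0 had an unadjusted p under 0.05, against 11.1%. The F test called 1 of 8, against 0.905%. In both comparisons with MPP the called gene was Slamf1, the gate marker. Groups did not overlap for 3 of 8 genes in MPP minus LT-HSC (24.7% of all genes), 1 of 8 in ST-HSC minus LT-HSC (23.3%) and 2 of 8 in MPP minus ST-HSC (14.2%). One family gene, Ly9, had all MPP arrays above all stem cell arrays, as did 3.7% of all genes, and 1, Slamf1, had them all below, as did 1.67% (5.37% in either direction). The median difference of the 8 genes was -0.18, -0.17 and 0.01 in the 3 comparisons, against 0.06, 0.02 and 0.01 for all genes, and the comparisons share arrays.

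Neighbours of the SLAM genes on chromosome 1 showed no drop of the size seen for Slamf1. Of 28 tested neighbours outside the family, 0 were called by limma in any comparison, with 4, 1 and 2 at an unadjusted p under 0.05 in MPP minus LT-HSC, ST-HSC minus LT-HSC and MPP minus ST-HSC. Their differences ran from -0.34 to 1.01 in MPP minus LT-HSC (median 0.15), and in MPP minus ST-HSC they lay between -0.17 and 0.71 (median 0.08). Arhgap30, which lies on the Cd244a side of the cluster, was at the top of both ranges, with 7.52 and 7.92 in LT-HSC, 7.60, 8.25 and 8.22 in ST-HSC and 8.69, 8.77 and 8.73 in MPP (limma adjusted p = 0.164 and 0.264). The brightest neighbours, Tagln2, Fcer1g, Ufc1, Copa, Dcaf8 and F11r, gave MPP minus LT-HSC differences of -0.15 to 0.44 (limma adjusted p from 0.459 to 0.867). The flanking genes of Slamf1 on either side, Cd48 and Cd84, differed by 0.87 and -0.21 in MPP minus LT-HSC against -2.72 for Slamf1 itself.

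**Figure D5:**
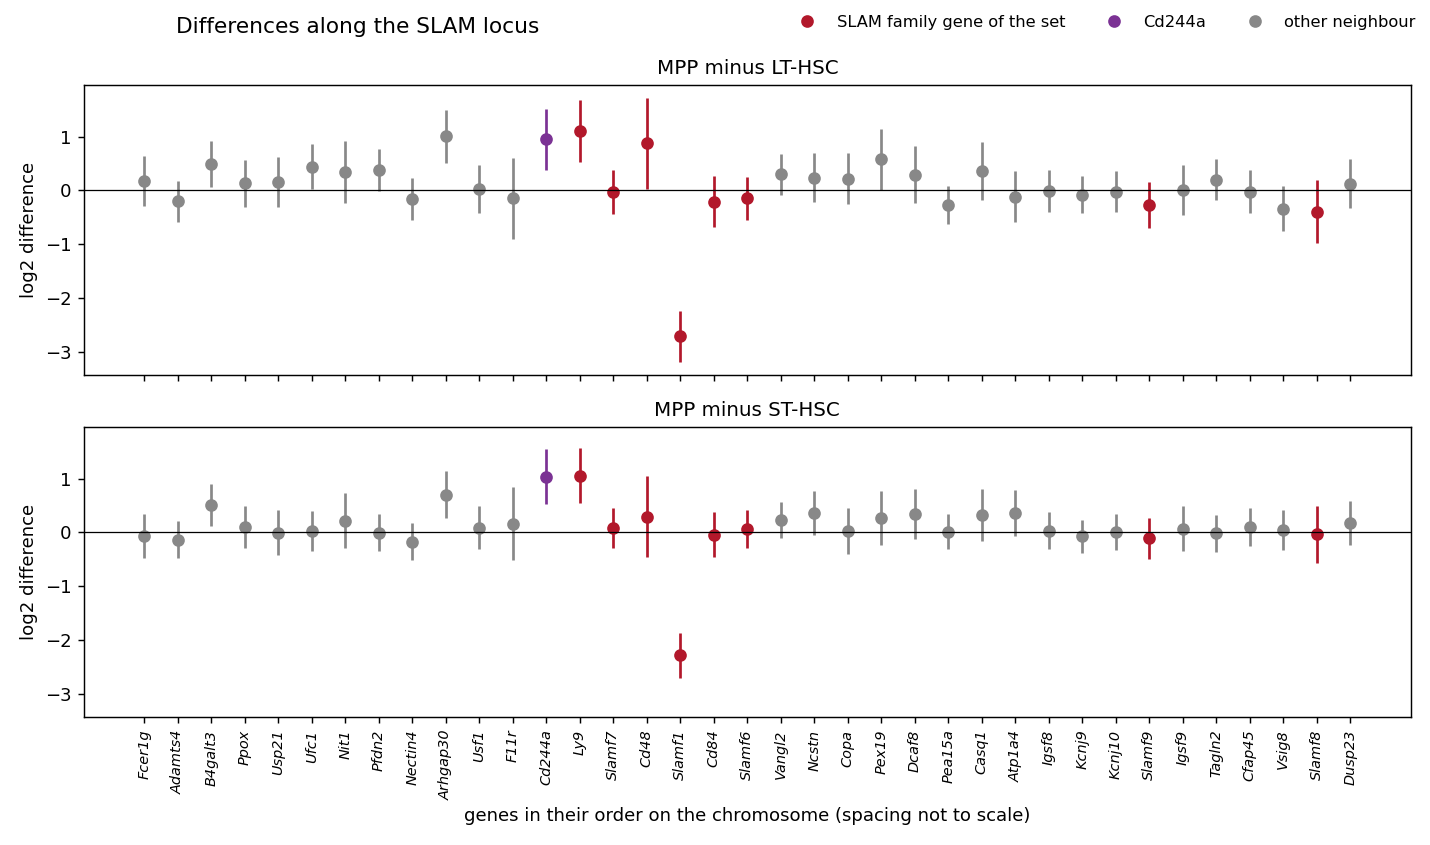
Log2 differences (vertical axis, bars for limma's 95% interval) of 37 tested genes in their order along the SLAM stretch of the chromosome (horizontal axis, not to scale), for MPP minus LT-HSC above and MPP minus ST-HSC below. Slamf1 is the only point below -0.5 in either panel, and Arhgap30, Cd244a and Ly9 are the highest in both.

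The intracellular partners of SLAM receptors gave no calls, though most were higher in MPP than in LT-HSC. Of 25 listed genes 20 were tested and 0 were called by limma in any comparison, with 2, 4 and 1 at an unadjusted p under 0.05 in the same order. In MPP minus LT-HSC 18 of the 20 differences were positive, with a median of 0.28 and a range of -0.20 to 0.67, and over all genes 57.2% were positive with a median of 0.06. The mean deviation of these partners was -0.31 on LT-HSC replicate 1, one of the arrays that stood apart, but 0.03 on LT-HSC replicate 3 and 0.09 to 0.15 in MPP, and the part of that array in the count was not tested. In ST-HSC minus LT-HSC 11 were positive (median 0.05) and in MPP minus ST-HSC 13 (median 0.13). The highest of them in MPP minus LT-HSC was Inpp5d, the lipid phosphatase SHIP1, at 8.28 and 8.69 in LT-HSC, 8.55, 8.88 and 8.84 in ST-HSC and 9.03, 9.24 and 9.17 in MPP. Its MPP minus LT-HSC difference was 0.67 (SE 0.19, limma adjusted p = 0.274) and the populations of that comparison did not overlap, as for 24.7% of all genes. The other bright partners Uvrag, Lat, Rasa1 and Vav1 differed there by 0.28 to 0.40 (limma adjusted p from 0.523 to 0.635).

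The SLAM adaptors themselves were dim. Sh2d1a, which encodes SAP, and Sh2d1b1, which encodes EAT-2, fell under the filter with means of 3.85 and 3.67, and Sh2d1b2, an EAT-2 relative, averaged 4.20. Fyn, the kinase that SAP recruits, was 6.51 and 6.97 in LT-HSC, 6.95, 7.32 and 7.34 in ST-HSC and 6.85, 6.92 and 7.01 in MPP. The phosphatases that bind SLAM tails without SAP were Ptpn6 (SHP-1), at 8.85, 8.87 and 9.09 in the population means, and Ptpn11 (SHP-2), at 6.86, 7.28 and 7.33. None of their differences passed (limma adjusted p from 0.417 to 0.999).

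Genes whose signal tracked Slamf1 most closely over the 8 arrays were Mpdz, Sfrp1, Gda, Bex4 and Nupr1, with Pearson r from 0.95 to 0.96 among 14935 genes considered. Those running most opposite to it were Apobr, Rnf220 and Myadm (r from -0.99 to -0.96). For Gda, guanine deaminase, the population means were 8.25 in LT-HSC, 7.63 in ST-HSC and 6.30 in MPP, and for Apobr, the apolipoprotein B receptor, 6.42, 6.55 and 7.17. The genes nearest to Cd48 were Sirpa, Hectd4, Herc2, Ankrd52 and Adam17 (r from 0.94 to 0.96) and the most opposite Kcnj1, Panx2 and Chmp4c (r from -0.95 to -0.93). Sirpa, the receptor for CD47, had means of 7.14, 7.36 and 7.44. The points share arrays and are few, so these are the closest profiles in this set of arrays and nothing more.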

How the data were processed

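RNA was extracted with Trizol, amplified with the Ovation Pico WTA System V2 and biotin-labelled, per the labels' protocols. The authors' deposited log2 values were made with RMA, per the submitters' processing notes. Its version is not given in the sources used here, and a log2 scale is inferred from the range of the values (2.05 to 12.94). RMA carries no detection call, and the number of arrays limits precision. Of 33649 probe sets, 23521 had 1 gene symbol, 1814 several and 8314 none in the platform annotation.

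Populations came from the sample labels. One linear model of the 8 arrays, with a mean per population, was fitted with limma 3.58.1 (R 4.3.3) and tested on simulated data, with 5 residual and 5.93 prior degrees of freedom and Benjamini-Hochberg adjustment over 17576 genes. Called means an adjusted p below 0.05, and 95% intervals are unadjusted. Arrays sharing a replicate number deviated together weakly in ST-HSC and MPP (r = 0.15, 0.23 and 0.21), though the labels state no pairing. Pairs of unlike number in these populations gave r from -0.28 to 0.07, but LT-HSC replicate 1 with MPP replicate 2 gave 0.22. Deviations were taken from population means, so these r values are not independent and do not establish a pairing. The main model has no term for the number, which was used in alternatives and in differences between arrays of the same number. LT-HSC shares only 2 numbers with either (r = 0.54 and 0.47 with ST-HSC, -0.16 and 0.10 with MPP). Its 2 arrays deviate by equal and opposite amounts, so their r values with any other array differ only in sign. Block results for MPP against LT-HSC rest on a pairing that these arrays do not show. Named genes were the 8, the called and up to 6 brightest of each list of partners, neighbours and markers, and for Slamf1 and Cd48 the 5 most and 3 least correlated genes, without predicted genes, small RNAs and olfactory, vomeronasal or antigen receptors. Arhgap30, Fyn, Ptpn11, the SAP and EAT-2 genes, Cd2, Cd3e, Cd3g, Ms4a1 and the genes most like Ly9 were named after their values were seen. Members and lists were chosen with earlier results of these data known. Alternatives covered scaling, filter, weights, replicate block, covariates and arrays left out.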

Additional observations from a re-analysis of the deposited data

How the results depend on the processing

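The Slamf1 calls against MPP held in all 21 alternatives of either comparison (limma adjusted p up to 0.0182 and 0.0302). In MPP minus LT-HSC the family count of 1 became 2 with the replicate block, 3 with only the 2 groups in a replicate block, a fit chosen after seeing the data that leaves 1 residual degree of freedom among 5 arrays, and 1 to 2 when arrays were left out singly. In ST-HSC minus LT-HSC it became 1 in the last-named block fit (Cd48, 0.76, limma adjusted p = 0.0362). In MPP minus ST-HSC it was 2 with array weights, the replicate block, the interquartile range covariate and the 2-group block, and 1 without any single array. By the F test it was 2 with weights, the replicate block, the random replicate block and the covariate, and 1 to 2 without single arrays. Apart from ST-HSC minus LT-HSC, the added gene was Ly9 each time, joined by Cd48 where the count was 3. The replicate block with all arrays changed no other call among the 8. With the block, Ly9 had limma adjusted p = 0.0441 in MPP minus LT-HSC, where the numbers give only 2 pairs, which did not deviate together. Its adjusted p ran from 0.0121 to 0.850 there while MPP minus ST-HSC gave 0.00700 to 0.395. No fit of the F test was possible with 2 groups. Genes with MPP arrays clear of the rest numbered 2, 2 to 3 without single arrays, and 4 without LT-HSC replicate 1 and ST-HSC replicate 1, a setting added after seeing the data that leaves fewer arrays.

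Some differences changed sign, none of them called with either sign except Cd48 in ST-HSC minus LT-HSC (0.58, called in the 2-group block only). Slamf7 in MPP minus LT-HSC gave 0.11 with quantile normalization, 0.10 with median centring, 0.020 with the block, 0.032 with the covariate, 0.018 without the 2 arrays and -0.12 to 0.074 without single arrays; in ST-HSC minus LT-HSC it gave 0.019 with quantile normalization and 0.0020 with centring, and in MPP minus ST-HSC -0.021 to 0.18 without single arrays. Slamf8 in MPP minus ST-HSC gave 0.076 with weights, 5.1e-05 with the covariate, 0.015 without the 2 arrays and -0.18 to 0.17 without single arrays, and Slamf6 -0.0045 with weights and -0.018 to 0.16. In ST-HSC minus LT-HSC, Ly9 gave -0.30 with the covariate, -0.25 without the 2 arrays and -0.37 to 0.47 without single arrays, Slamf9 0.079 and -0.34 to 0.0057, Cd48 -0.093 without the 2 arrays, and Cd84 -0.49 to 0.16. Cd84 ran from -0.53 to 0.12 in MPP minus LT-HSC while in MPP minus ST-HSC its range was -0.14 to 0.018 and that of Cd48 -0.051 to 0.61. The cause was not tested. Median centring moved the median of all genes from 0.06 to 0.18 in MPP minus LT-HSC and from 0.02 to 0.13 in ST-HSC minus LT-HSC. Over all alternatives the number of genes called ran from 5 to 615 (22 as reported) in MPP minus LT-HSC, 0 to 1128 (164) in ST-HSC minus LT-HSC and 1 to 525 (34) in MPP minus ST-HSC, and by the F test from 29 to 566 (159). The lowest counts came from median centring (both comparisons with MPP), from leaving out LT-HSC replicate 1 and ST-HSC replicate 1, and (F test) from leaving out ST-HSC replicate 3. The highest came from leaving out LT-HSC replicate 3, from the 2-group block, from array weights and (F test) from the replicate block.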

Other observations

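The genes whose signal was nearest to that of Ly9 over the 8 arrays, singled out after its values were seen, were Rinl, Dennd4b, Tespa1, Csf3r and Nlrc3 (r from 0.97 to 0.99). Csf3r, the receptor for granulocyte colony-stimulating factor, had means of 7.35 in LT-HSC, 7.37 in ST-HSC and 8.39 in MPP, and Nlrc3, a cytosolic receptor of the NLR family, 5.72, 5.61 and 6.84. The most opposite profiles were P3h2, Atf5 and Grhl3 (r from -0.98 to -0.95).

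Flt3, a cytokine receptor used to subdivide progenitors, had higher means in MPP than in the stem cell populations, as did Ly9. Among the 12 tested gate and subset markers Flt3 had the largest difference in both comparisons with MPP, and the list was mixed. In MPP minus LT-HSC 7 were positive and 5 negative, and in MPP minus ST-HSC 8 were positive and 4 negative. It was 5.84 and 8.49 in LT-HSC, 7.19, 7.17 and 6.86 in ST-HSC and 9.80, 9.43 and 9.45 in MPP. The differences were 2.39 from LT-HSC (SE 0.55, limma adjusted p = 0.170) and 2.49 from ST-HSC (SE 0.49, limma adjusted p = 0.0893). Both passed with the replicate block (limma adjusted p = 0.0353 and 0.00876) and neither with the random replicate block (limma adjusted p = 0.116 and 0.0523). LT-HSC and MPP share only 2 replicate numbers, whose arrays did not deviate together (r = -0.16 and 0.10). The Flt3 difference from LT-HSC was 1.07 with LT-HSC replicate 1 left out and 3.72 with LT-HSC replicate 3 left out (limma adjusted p = 0.265 and 0.000842). Over all alternatives the limma adjusted p of the difference from ST-HSC ran from 0.000184 to 0.348.

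Of 15 tested genes of megakaryocytes and platelets, which carry CD150 and CD84, limma called 1 in MPP minus LT-HSC, 1 in ST-HSC minus LT-HSC and 2 in MPP minus ST-HSC, against 0.125%, 0.933% and 0.193% of all genes. Vwf, the adhesive von Willebrand factor, gave a MPP minus LT-HSC difference of -1.82 (limma adjusted p = 0.0147). Itga2b, the platelet integrin CD41, rose from LT-HSC to ST-HSC by 1.18 (limma adjusted p = 0.00814), and its MPP minus ST-HSC difference was -1.17 (limma adjusted p = 0.0141). The chemokine Pf4 differed by -2.00 in the latter comparison (limma adjusted p = 0.0340). Without single arrays the highest limma adjusted p was 0.123 for Vwf, 0.0580 and 0.0973 for Itga2b and 0.168 for Pf4, with every direction kept. Calls also ended with median centring (Vwf 0.0636, Itga2b in MPP minus ST-HSC 0.0615, Pf4 0.124), array weights (Vwf 0.117, Itga2b in ST-HSC minus LT-HSC 0.0512), no filter (Pf4 0.0582) and without both LT-HSC replicate 1 and ST-HSC replicate 1 (Itga2b in ST-HSC minus LT-HSC 0.0923, Pf4 0.0507), all limma adjusted p. LT-HSC replicate 1, ST-HSC replicates 1, 2 and 3, and each MPP array ended at least 1 of these calls when left out. None of the erythroid and none of the stromal and endothelial markers was called by limma in any comparison (unadjusted p under 0.05 for 0, 0 and 1 and for 3, 0 and 4 of them in MPP minus LT-HSC, ST-HSC minus LT-HSC and MPP minus ST-HSC). The same held for granulocyte and monocyte markers (2, 0 and 2).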
